A study of Mus musculus with 12 samples.

Results

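The family of miR-15, miR-16 and miR-322 is a group of microRNAs that share 1 seed, the stretch near the 5′ end that pairs with target messenger RNAs. It was represented by 6 of the 566 mouse miRNA probes on the array, namely mmu-miR-15a, mmu-miR-15b, mmu-miR-16, mmu-miR-195, mmu-miR-322 and mmu-miR-497, chosen by name. Of these, 5 met the detection filter (a count above the mean plus 2 SD of the library's negative control probes in at least 3 of the 12 libraries) and were tested among 195 detected mouse miRNAs. The sixth, miR-195, met the threshold in 0 of 12 libraries and was not tested.

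The libraries came from mHypoE-46, an immortalised neuronal line of embryonic mouse hypothalamus. It is labelled male and as expressing the appetite-promoting peptides Neuropeptide Y and Agouti-related Peptide. The 4 groups, of 3 libraries each, were cells given 100 nM insulin and harvested after 4 h, cells given 100 nM insulin and harvested after 24 h, and cells given vehicle (phosphate buffered saline) and harvested after 4 h or after 24 h. All groups grew in medium with serum, and the labels place the 24 h harvest after insulin resistance has developed in this model. All libraries are of 1 immortalised line, the series' text describes 3 independent replicates, and total RNA was counted on a NanoString nCounter panel, which counts barcoded probes without amplification.

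MicroRNAs of this family repress messenger RNAs of cell cycle regulators such as cyclins D and E and of the anti-apoptotic protein BCL2, and miR-15a and miR-16 are known as tumour suppressors lost in chronic lymphocytic leukaemia in humans. The members are transcribed from several clusters and often accumulate as cells leave the cell cycle or differentiate. Because the seed is shared, the members can act on overlapping sets of targets.

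The mature sequences, from RefSeq on GRCm38.p6, are shown because the members differ only outside the seed, and the detection of each probe depends on those bases. Capitals mark the seed, bases 2 to 8, and all run 5′ to 3′.

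miR-15a: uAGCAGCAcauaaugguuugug

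miR-15b: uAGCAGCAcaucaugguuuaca

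miR-16: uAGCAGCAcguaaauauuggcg

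miR-195: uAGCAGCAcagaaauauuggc

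miR-322: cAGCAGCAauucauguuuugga

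miR-497: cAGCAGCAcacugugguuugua

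All 6 members matched the RefSeq table and carried the seed AGCAGCA, which 10 of its 1679 mature mouse miRNA names held. Over the whole sequence, seed included, identity between members ranged widely when aligned base by base from the 5′ end. miR-16 and miR-195 were identical at 19 of 21 bases (90.5%), so the counts of this pair are uncertain where a probe could capture the other member. miR-15a and miR-15b shared 18 of 22 bases (81.8%), and miR-16 and miR-497 shared 11 of 22 (50%). After base 8, miR-16 and miR-195 matched at 11 of 13 bases and miR-15a and miR-15b at 10 of 14. There miR-16 and miR-497 matched at 4 of 14. miR-16 and miR-322, the pair whose levels moved together below, shared 12 of 22 bases, with 5 of the 14 after base 8 identical.

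Mature miR-15a lies at chr14:61632075-61632096 on the minus strand, within the long non-coding RNA gene Dleu2, and a copy of miR-16 at chr14:61631936-61631957 starts 139 bases away. Mature miR-15b lies at chr3:69009775-69009796 on the plus strand, within the span of the protein-coding gene Smc4, and another copy of miR-16 at chr3:69009918-69009939 starts 143 bases away. The miR-16 probe cannot tell these copies apart, since their mature sequences are the same. miR-497 at chr11:70234730-70234751 and miR-195 at chr11:70235062-70235082, both on the plus strand, start 332 bases apart. miR-322 lies at chrX:53054306-53054327 on the minus strand, within the non-coding gene C430049B03Rik, 279 bases from its cluster partner miR-503.

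The libraries held 142158 to 379809 counts over the mouse probes. The detection threshold lay between 38.9 and 124 counts, so counts near it carry little information on level. The instrument placed the 4 h libraries in lanes 1 to 6 and the 24 h libraries in lanes 7 to 12, with each vehicle library 1 lane before the insulin library of the same number, so harvest time and lane block cannot be told apart. The library that correlated least with its group was insulin 24 h replicate 1 (mean r = 0.960 with its group mates over the tested miRNAs). Of the marker lists, miR-9, which neural cells express, was above threshold in 12 of 12 libraries with 879 to 1916 counts, whereas miR-124, the most abundant miRNA of mature neurons, was above it in 0 of 12. miR-451, a marker of red blood cells, which are also rich in miR-16, had 5 to 18 counts and was above threshold in 0 of 12 libraries.

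miR-16, encoded in both the miR-15a and the miR-15b cluster, gave the highest counts of the family in most libraries. Levels are given as CPM, counts scaled to library size with TMM factors over the 195 tested miRNAs, and they compare 1 probe across libraries, since probes differ in capture. Raw counts of miR-16 at 24 h were 6744, 22402 and 12127 in insulin replicates 1 to 3, against 7788, 14007 and 13282 in the vehicle replicates. At 4 h they were 3766, 6726 and 8646 in the insulin replicates, against 2274, 4290 and 8829 in the vehicle replicates. In CPM, miR-16 at 24 h stood at 59572, 79455 and 55939 in insulin cells, against 47404, 58803 and 59253 in vehicle cells, and the groups overlapped. At 4 h miR-16 stood at 18800, 33071 and 51603 CPM in insulin cells, against 14390, 24797 and 45248 CPM in vehicle cells. The 4 h groups overlapped widely, and each spanned a broad range.

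miR-322, the X-linked member known in human as miR-424, was above threshold in 12 of 12 libraries but only just so in the first lane, with 79 counts against a threshold of 76.9. Its counts at 24 h were 232, 805 and 505 in insulin cells, against 338, 562 and 569 in vehicle cells. At 4 h they were 116, 249 and 361 in insulin cells, against 79, 161 and 325 in vehicle cells. The corresponding CPM at 24 h were 2049, 2855 and 2329 in insulin cells, against 2057, 2359 and 2538 in vehicle cells, where the groups overlapped. At 4 h miR-322 stood at 579, 1224 and 2155 CPM in insulin cells, against 500, 931 and 1666 CPM in vehicle cells. Most of its spread lay within these 4 h groups, where the highest library of each group was more than 3 times its lowest.

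miR-15a, encoded on chromosome 14 beside a copy of miR-16, varied less. It stood at 21103, 15943 and 11979 CPM in insulin cells at 24 h, against 17640, 13908 and 14731 CPM in vehicle cells, so that the insulin range enclosed the vehicle range. At 4 h the values were 14641, 19131 and 19075 CPM in insulin cells, against 20066, 16826 and 19639 CPM in vehicle cells, and the groups overlapped.

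miR-15b, its counterpart on chromosome 3, stood at 20458, 41295 and 28761 CPM in insulin cells at 24 h, against 27762, 33744 and 30608 CPM in vehicle cells. At 4 h it stood at 20722, 26841 and 28141 CPM in insulin cells, against 22730, 23659 and 28295 CPM in vehicle cells, and the groups overlapped at both times. Insulin 24 h replicate 1 held both the highest miR-15a and the lowest miR-15b level of the 12 libraries.

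miR-497 and miR-195, the pair on chromosome 11, were at or near background. miR-497 counted 38, 118 and 75 in insulin cells at 24 h, against 51, 90 and 79 in vehicle cells. It counted 92, 82 and 61 in insulin cells at 4 h, against 56, 54 and 76 in vehicle cells. It was above threshold in 4 of 12 libraries, all 3 insulin libraries and 1 vehicle library at 4 h, and in 0 of 6 at 24 h. It therefore passed the filter through 1 time point, and its changes carry little weight. miR-195 counted 24 to 55 in all, and the library with 22402 counts of its near-identical relative miR-16 held 55 counts of miR-195.

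**Figure D1:**
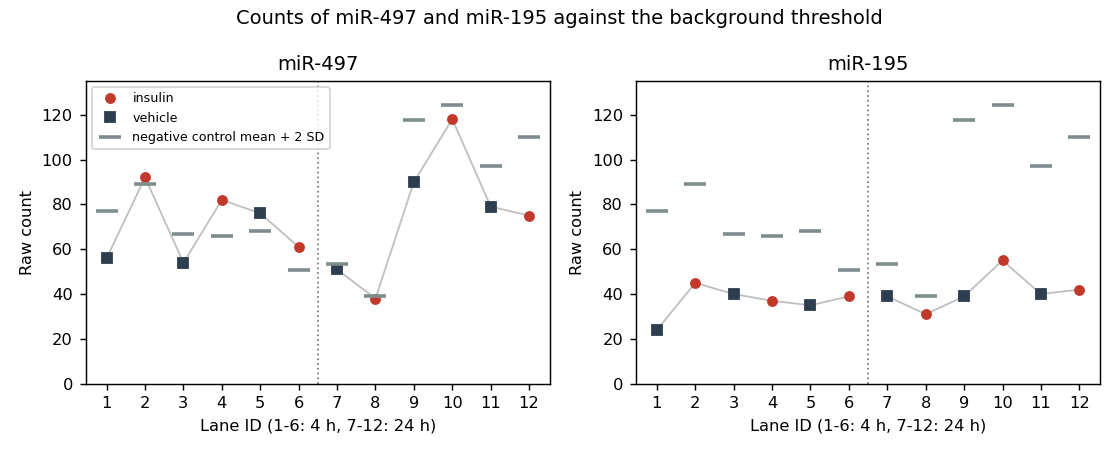
Raw count (vertical axis) of miR-497, left, and miR-195, right, in each library by Lane ID, with insulin as circles, vehicle as squares, and grey bars at each library's mean plus 2 SD of the negative control probes. miR-497 exceeded the bar in 4 libraries of the 4 h harvest, and miR-195 lay under it in all 12.

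The first comparison asked whether insulin changed the family at 4 h, the harvest the labels place before resistance. No member passed the test. miR-16 averaged 34491 ± 16448 CPM in insulin cells and 28145 ± 15699 CPM in vehicle cells (SD, n = 3 each), a log2 difference of 0.29 (SE 0.38, 95% confidence interval -0.52 to 1.11). miR-322 averaged 1319 ± 792 CPM in insulin cells and 1032 ± 589 CPM in vehicle cells, a log2 difference of 0.34 (SE 0.41, interval -0.53 to 1.22). The log2 differences of the other tested members were -0.10 for miR-15a, 0.02 for miR-15b and 0.22 for miR-497. By edgeR's quasi-likelihood test with Benjamini-Hochberg adjustment over 195 miRNAs, 0 of 5 members were called at an adjusted p under 0.05, beside 0.0% of all tested miRNAs, and their adjusted p-values were 0.971 to 0.976. At an unadjusted p under 0.05 the count was 0 members, beside 1.54% of tested miRNAs, and adjusted calls by DESeq2 and by limma on the deposited signals numbered 0 of 5 as well, each beside 0.0%. The intervals for miR-16 and miR-322 include a doubling.

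miR-16 and miR-322 were higher in the insulin library of all 3 same-numbered pairs at 4 h. That library always lay 1 lane after its vehicle partner. With a slope along Lane ID in the same fit, the insulin differences became -0.06 for miR-16 and -0.12 for miR-322. That fit takes the trend to run by lane and not by replicate number, and the design cannot tell these apart. With a replicate block in place of the slope, the insulin differences were 0.31 and 0.33, with 0 members called. Without insulin 4 h replicate 3 they were -0.12 and -0.20, and without vehicle 4 h replicate 3 they were 0.82 and 0.87, with 0 members called in either case.

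At 24 h no member passed the same test. miR-16 averaged 64989 ± 12659 CPM in insulin cells and 55153 ± 6715 CPM in vehicle cells, a log2 difference of 0.24 (SE 0.38, interval -0.58 to 1.05), which was 0.07 without insulin 24 h replicate 2. miR-322 averaged 2411 ± 409 CPM in insulin cells and 2318 ± 243 CPM in vehicle cells, a log2 difference of 0.06 (SE 0.40). miR-15a, miR-15b and miR-497 had log2 differences of 0.08, -0.02 and 0.09. The count was 0 of 5 members, beside 0.0% of the tested miRNAs, and 0 at an unadjusted p under 0.05, beside 2.05%. DESeq2 and limma called 0 members and 0.0% of tested miRNAs, and adjusted p-values by edgeR lay between 0.962 and 0.988. Leaving out insulin 24 h replicate 1, the library that stood apart, gave -0.14 for miR-15a and 0.19 for miR-15b, with 0 members called. No member's insulin and vehicle values separated without overlap at either time. Such separation was seen for 6.15% of tested miRNAs 24 h after insulin and 5.13% after 4 h.

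Whether insulin acted differently at the later harvest was tested as the 24 h insulin difference minus that of 4 h. It lay between -0.28 (SE 0.57, miR-322) and 0.18 (SE 0.31, miR-15a) on the log2 scale. Members called were 0 of 5, at an unadjusted p under 0.05 too, beside 0.0% of tested miRNAs by edgeR, and DESeq2 and limma called 0 members as well. Averaged over both times, the insulin difference of miR-16 was 0.26 (SE 0.27) and that of miR-322 was 0.20 (SE 0.29), while miR-15a and miR-15b lay at -0.01 and -0.00. Here too 0 of 5 members were called by edgeR, beside 0.0% of tested miRNAs, with 0 at an unadjusted p under 0.05, beside 3.08%, and 0 by DESeq2 or limma.

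**Figure D2:**
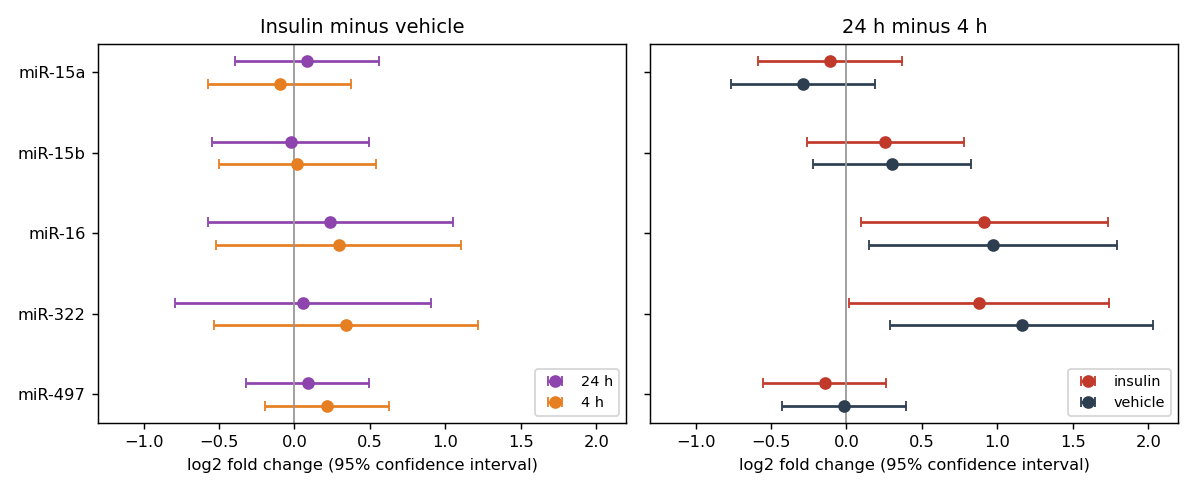
Log2 fold change (horizontal axis, points) with its 95% confidence interval (bars) for the 5 tested members, as insulin minus vehicle at each time on the left and 24 h minus 4 h within each treatment on the right. All insulin intervals cross 0, and the time intervals of miR-16 and miR-322 lie above 0 before adjustment over the 195 tested miRNAs.

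Between the harvests, miR-16 and miR-322 were higher at 24 h than at 4 h, by similar amounts, while miR-15a, miR-15b and miR-497 showed no called change. Averaged over treatments, miR-16 rose with a log2 difference of 0.94 (SE 0.27, adjusted p = 0.0284 by edgeR) and miR-322 with 1.02 (SE 0.29, adjusted p = 0.0278 by edgeR). Thus 2 of 5 members were called, both higher, beside 15.4% of all tested miRNAs (19 higher, or 9.74%, and 11 lower). That split depended on scaling, with 16 higher and 16 lower after scaling to the 100 highest probes, 4 and 13 after positive control scaling, and 0 and 17 after housekeeping scaling. The remaining log2 differences were -0.20 for miR-15a, 0.28 for miR-15b and -0.08 for miR-497. In these bulk samples fewer cells of a type and less RNA per cell cannot be told apart.

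Within each treatment the time difference did not pass in the fit of the 4 groups. In insulin cells miR-16 differed by 0.91 (SE 0.38) with an adjusted p of 0.184 by edgeR, and miR-322 by 0.88 (SE 0.40) with 0.227, so 0 of 5 members were called beside 3.59% of tested miRNAs. The miR-322 difference was 0.52 without insulin 4 h replicate 1. Without insulin 4 h replicate 3 it was 1.42 and called, beside 11 of 195 tested miRNAs, 7 of them higher. In vehicle cells miR-16 differed by 0.97 (SE 0.38) with an adjusted p of 0.218 by edgeR, and miR-322 by 1.16 (SE 0.41) with 0.151, and 0 of 5 members were called beside 0.0% of tested miRNAs. The vehicle difference of miR-16 was 0.62 without vehicle 4 h replicate 1 and 1.49 without vehicle 4 h replicate 3. In the latter run it was called together with miR-322 (1.69), beside 12 of 195 tested miRNAs, 11 of them higher. In vehicle cells both had an unadjusted p under 0.05, as had 15.9% of tested miRNAs. There DESeq2 called 0 members, beside 7.69% of tested miRNAs, and limma called miR-322, beside 6.15%. The 24 h and 4 h values of miR-16 did not overlap in either treatment. Those of miR-322 did not overlap in vehicle cells and did in insulin cells. For all tested miRNAs, non-overlap was seen in 19.0% in insulin cells and 26.2% in vehicle cells.

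The time call rested on the choice of scaling and on single libraries. It fell away for both members after scaling to the positive controls (0.81 for miR-16 and 0.89 for miR-322) or to the housekeeping mRNAs (0.56 and 0.63, where the median of all tested miRNAs was -0.33), and without the detection filter (0.89 and 0.97). It was also lost for both on leaving out any 1 of vehicle 4 h replicates 1 and 2, insulin 4 h replicate 2, vehicle 24 h replicates 2 and 3, or insulin 24 h replicate 2. Without insulin 4 h replicate 1 only miR-322 was called, and without insulin 24 h replicate 3 only miR-16. Over the alternatives the adjusted p ranged between 0.00228 and 0.198 for miR-16 and between 0.000807 and 0.186 for miR-322.

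The neighbouring lanes across the time boundary were close. Lane 7, the first 24 h library (vehicle), held 0.919 times the miR-16 level of lane 6, the last 4 h library (insulin), and 0.955 times its miR-322 level. For miR-15a, miR-15b and miR-497 the same ratio was 0.925, 0.987 and 0.853. For the marker lists of other cell types, the counts of all listed probes, those below threshold included, were summed as CPM of the whole mouse probe total without TMM factors. The list for red blood cells and serum, of which 2 of 10 miRNAs were tested (miR-223 and miR-126-3p), summed to 1332 to 1797 in insulin cells at 24 h and 2515 to 5699 at 4 h. In vehicle cells it summed to 1455 to 2061 at 24 h and 2772 to 6918 at 4 h, so its sums were lower at 24 h, without overlap, in both treatments. All marker sums include background, which was not subtracted, and the negative control mean was 25 to 61.9 counts over the 12 libraries. Of the 2 tested probes of this list, miR-223 alone had 25 to 832 counts. A lower sum therefore need not mean lower levels across the list.

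The list for glia and mesenchyme was likewise lower at 24 h without overlap, at 5274 to 5928 in insulin cells at 24 h and 7256 to 8618 at 4 h. In vehicle cells it summed to 5769 to 6096 at 24 h and 7772 to 8378 at 4 h. The neuronal list summed to 7059 to 8125 in insulin cells at 24 h and 7942 to 9557 at 4 h, which overlapped, and to 7833 to 8430 in vehicle cells at 24 h and 9004 to 10415 at 4 h, which did not. The muscle and epithelial sums overlapped between the times in both treatments. Of the neuronal list 5 of 8 probes were tested, and miR-9, with 879 to 1916 counts, held most of its counts. Of the glia and mesenchyme list 3 of 8 were tested. Lower sums need not mean lower levels across these lists either. The part of these lists in the miR-16 and miR-322 results was not tested.

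**Figure D3:**
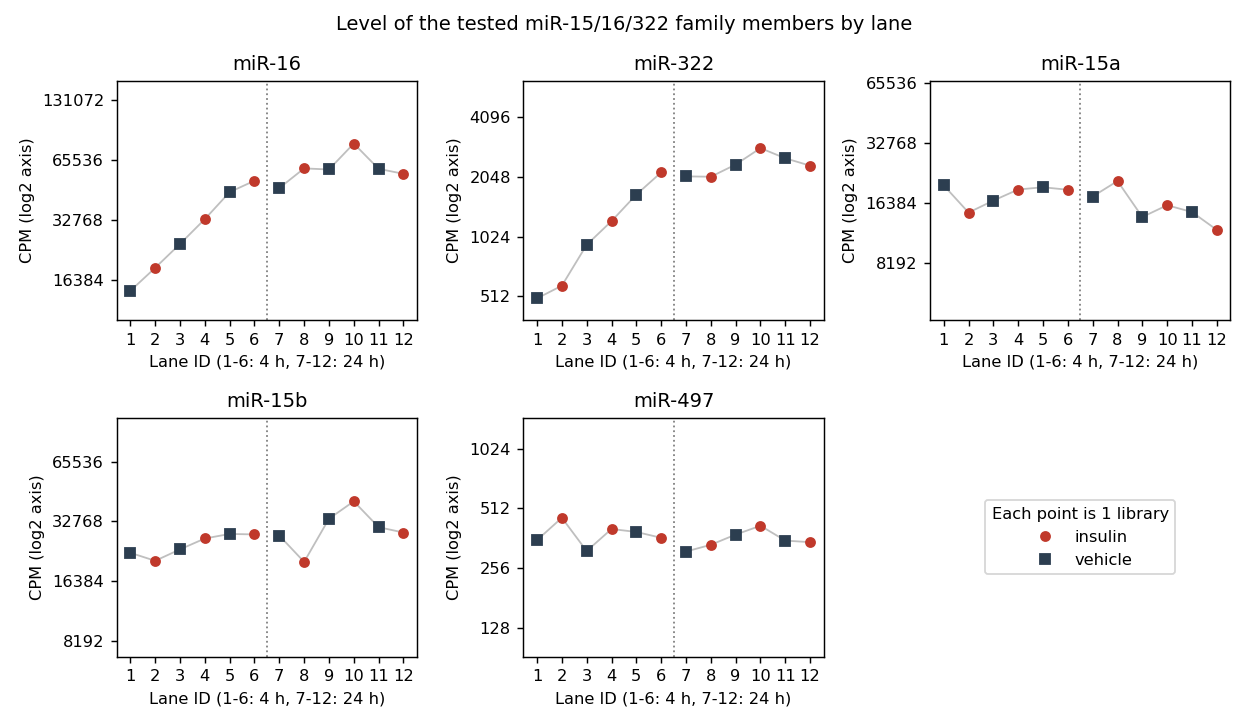
CPM on a log2 axis spanning the same number of doublings in each panel, by Lane ID, for the 5 tested members, with insulin libraries as circles and vehicle libraries as squares. miR-16 and miR-322 climb through lanes 1 to 6 in both treatments and level off in lanes 7 to 12, while the other members show no such climb.

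Within the 4 h harvest, miR-16 and miR-322 climbed at every step along the lanes. Between lane 1 and lane 6, miR-16 increased 3.59-fold and miR-322 4.31-fold, with 5 of 5 neighbouring steps upward, insulin and vehicle libraries alternating on the same line. The fitted slope, with treatment in the model, was 0.45 log2 units per lane for miR-322 (SE 0.049, adjusted p = 5.97e-06 by edgeR) and 0.39 for miR-16 (SE 0.050, adjusted p = 3.30e-05 by edgeR). By p-value these ranked 1 and 3 among the 195 tested miRNAs. The slopes of miR-15b (0.09, SE 0.059), miR-15a (0.04, SE 0.048) and miR-497 (-0.03, SE 0.056) were not called.

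So 2 of 5 members were called along the 4 h lanes, beside 15.4% of all tested miRNAs, 28 rising (14.4%) and 2 falling. With scaling to the 100 highest probes, 20 rose and 52 fell over the panel, and limma on the deposited signals gave 20 and 48. miR-16 and miR-322 were called as rising under each alternative run and with each library left out in turn, with slopes of 0.30 to 0.45 for miR-16 and 0.36 to 0.58 for miR-322. Subtracting the negative control mean, which matters most for the 79 counts of miR-322 in lane 1, gave 0.58 for miR-322 and 0.36 for miR-16. Scaling each library to its own miR-15a count instead gave 0.34 for miR-16 (adjusted p = 0.00511 by edgeR) and 0.41 for miR-322 (adjusted p = 0.00145 by edgeR).

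Over the same lanes the mouse probe totals were 171622, 210310 and 196814 in insulin libraries, against 142158, 156980 and 213462 in vehicle libraries. The mean of the negative control probes was 45.5, 36.8 and 30 counts in insulin libraries, against 37.1, 38.3 and 35.6 counts in vehicle libraries. The geometric mean of the positive controls was 768, 678 and 553 counts in insulin libraries, against 496, 573 and 621 counts in vehicle libraries. The geometric mean of the spike-in probes was 23.4, 12.8 and 10.8 counts in insulin libraries, against 24.7, 20.1 and 17.1 counts in vehicle libraries. It was lower in the later lanes of each treatment, but in each of these libraries it lay under the negative control mean. The epithelial marker sum was also lower in each next lane, at 3106, 1845 and 1692 CPM of the mouse total in insulin libraries, against 3271, 2777 and 1813 in vehicle libraries. The muscle marker sum was 1707, 1721 and 1275 in insulin libraries, against 2406, 2064 and 1443 in vehicle libraries. Of 7 listed probes each, 2 epithelial and 3 muscle probes were tested, and both sums include background. Relative to the mouse totals, the negative control mean was also lower in the later lanes of each treatment. Within each group the replicate number rose with Lane ID. With the group means in the fit, a trend along lanes and a trend over replicates therefore cannot be told apart. The part of depth, spike-in level, marker lists, background, replicate or lane handling in the slope was not tested.

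Along the 24 h lanes no member was called, 0 of 5 beside 1.03% of the tested miRNAs. The slopes were 0.03 (SE 0.051) for miR-16, 0.06 (SE 0.046) for miR-322, 0.08 for miR-15b, 0.02 for miR-497 and -0.13 (SE 0.048) for miR-15a. That of miR-15a alone had an unadjusted p under 0.05, beside 22.1% of tested miRNAs, with an adjusted p of 0.156 by edgeR. The miR-15a slope was called without vehicle 24 h replicate 3, beside 14 of 195 tested miRNAs, 10 of them lower. After housekeeping scaling it was called beside 23 of 195, all lower, where the median slope of all tested miRNAs was -0.098. The 24 h levels of miR-16 spanned 1.68-fold over 6 libraries and those of miR-322 1.39-fold, against 3.59-fold and 4.31-fold at 4 h. The difference between the 2 slopes was called for miR-16 and miR-322, 2 of 5 members beside 21.5% of tested miRNAs. After scaling each library to its miR-15a count it was called for 0 members, beside 3 higher and 16 lower of 195. That scaling shifted the whole panel, to a median slope difference of -0.155.

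**Figure D4:**
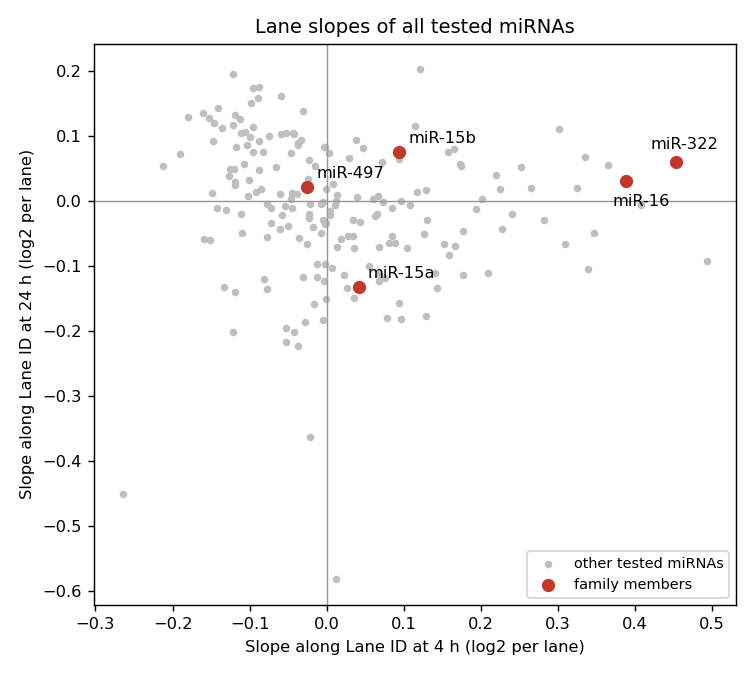
Slope along Lane ID at 4 h (horizontal axis) and at 24 h (vertical axis), in log2 units per lane, for the 195 tested miRNAs, with the 5 family members as large red points. miR-16 (0.39) and miR-322 (0.45) lie at the far right near 0 on the vertical axis, and the other members lie among the bulk of the panel.

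Ratios of raw counts within a library need no scaling between libraries. The ratio of miR-16 to miR-15a, its cluster partner on chromosome 14, was 2.82, 4.98 and 4.67 in insulin cells at 24 h, against 2.69, 4.23 and 4.02 in vehicle cells. At 4 h it was 1.28, 1.73 and 2.71 in insulin cells, against 0.717, 1.47 and 2.30 in vehicle cells. It was higher in each next lane at 4 h, 3.77-fold in all.

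The ratio of miR-322 to miR-16, which come from different chromosomes, stayed between 0.0344 and 0.0434 at 24 h and between 0.0308 and 0.0418 at 4 h. It spanned 1.26-fold at 24 h and 1.36-fold at 4 h. The ratio of miR-15b to miR-15a spanned 2.67-fold at 24 h, where its lowest value, 0.969, was that of insulin 24 h replicate 1, and 1.30-fold at 4 h.

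**Figure D5:**
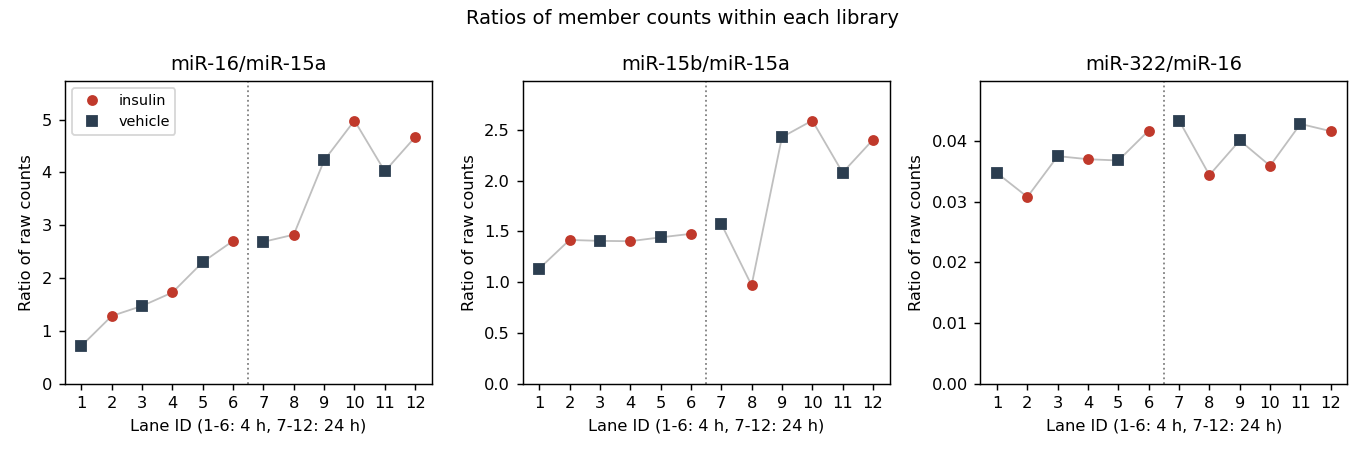
Ratio of raw counts within each library (vertical axes starting at 0) by Lane ID, for miR-16 over miR-15a, miR-15b over miR-15a and miR-322 over miR-16, with insulin as circles and vehicle as squares. miR-16 over miR-15a climbs between 0.717 and 2.71 in lanes 1 to 6, whereas miR-322 over miR-16 stays between 0.0308 and 0.0434 in all lanes.

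Together the 6 probes took 8.25% to 10.4% of mouse miRNA counts at 24 h and 6.47% to 8.72% at 4 h. The composition shifted more than the sum. miR-16 made up 56.2% to 57.4% of the family's counts in insulin cells at 24 h and 33.9% to 50.8% in insulin cells at 4 h. In vehicle cells it made up 49.7% to 55.0% at 24 h and 24.7% to 47.4% at 4 h. miR-15a made up 12.7% to 18.5% of the family's counts in vehicle cells at 24 h, and 20.6% to 34.5% in vehicle cells at 4 h. In insulin cells its share was 11.4% to 20.3% at 24 h and 18.8% to 26.4% at 4 h, which overlapped.

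Across the 12 libraries, the log2 CPM of miR-16 and miR-322 had a Pearson correlation of 0.99. This describes these libraries only, since all pairs share library, depth and lane. miR-15b correlated with miR-16 at 0.68 and with miR-322 at 0.70, while miR-15a correlated with miR-16 at -0.23 and with miR-15b at -0.38. Over all 18915 pairs of tested miRNAs the quartiles were -0.33 and 0.36. Outside the family, the miRNAs most like miR-16 were miR-29b (0.98) and let-7e (0.98), and those most like miR-322 were again miR-29b (0.98) and let-7e (0.96). For miR-15a they were miR-25 (0.98) and let-7b (0.95), for miR-15b they were miR-30d (0.86) and miR-30e (0.84), and for miR-497 they were miR-24 (0.84) and miR-23b (0.63). The mean of the tested members was most like miR-93 (0.97), miR-365 (0.97) and let-7e (0.96).

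Of 18 relatives and cluster partners listed, 10 were on the panel and 3 were tested, namely miR-103, miR-107 and miR-450a-5p. miR-103 and miR-107 share part of the family's seed, and miR-450a lies in the cluster of miR-322. miR-503, the nearest cluster partner of miR-322, counted 23 to 61 and was above threshold in 0 of 12 libraries. miR-103 was called along the 4 h lanes with a slope of 0.23 (SE 0.054, adjusted p = 0.00664 by edgeR), whereas miR-107 (0.07) and miR-450a-5p (-0.04) were not called. None of the 3 was called for insulin or for time.

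A list of 26 miRNAs of other seed families, reported to act on cell cycle regulators, included the let-7, miR-17, miR-29 and miR-34 families. Of the 26, 25 were tested. Along the 4 h lanes 10 rose and 0 fell, beside 14.4% of tested miRNAs rising. The median slope was 0.12 beside -0.01 over all tested miRNAs, and it stayed above 0 under each scaling run. By limma and under top 100 scaling 9 rose and 1 fell, with a median of 0.03 in each (beside -0.09 and -0.10). For 24 h against 4 h averaged over treatments, 8 rose and 1 fell, beside 9.74% of tested miRNAs called higher, with a median log2 difference of 0.45 beside 0.04. After positive control scaling, and also without the detection filter, 2 rose and 1 fell, and under housekeeping scaling 0 rose and 1 fell, with a median of 0.11 beside -0.33. For insulin 0 of the 25 were called at 24 h and at 4 h, with a median of 0.16 each time, beside 0.06 and 0.01 over all tested miRNAs. These medians turned to -0.24 at 24 h under housekeeping scaling (beside -0.33) and to -0.06 at 4 h with the lane slope in the fit (beside -0.02). With the replicate block the 4 h median was 0.16 (beside 0.01).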

How the data were processed

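The authors deposited a table of counts per probe, treated here as estimated counts because its instrument header rows are not whole; all 7440 probe values were whole and needed no rounding. The authors' deposited processed signal equalled, by a check on the files, each mouse count times 1 factor per lane, the inverse geometric mean of the 100 highest mouse probes, while 600 of 600 control and viral values equalled the raw counts. The authors' background handling is not stated in the labels. Counts were tested with edgeR 4.0.16 (quasi-likelihood, TMM, library sizes summed over the 195 tested probes, 4 groups in 1 fit) in R 4.3.3; the lane fit added a slope along Lane ID within 4 h and within 24 h. Benjamini-Hochberg adjustment ran over all 195, with calls at an adjusted p under 0.05. DESeq2 1.42.0 on the same counts and limma 3.58.1 on log2 of the deposited signal plus 1 were alternatives. Library sizes were matched to earlier processing of these data after both versions had been seen: summing over all 566 mouse probes called 2 in place of 7 miRNAs for 24 h against 4 h in insulin cells. The group and lane fits were also tested on simulated counts.

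The members and lists were chosen with earlier results of these data known. Named were all 6 members, for each tested member the 2 other miRNAs with the highest correlation over 12 libraries (3 for the members' mean), the relatives, and a cell cycle list given by counts and medians; miR-503 and the markers miR-9, miR-124 and miR-451 were named after their values were seen. Marker lists covered neurons (5 of 8 tested), red blood cells and serum (2 of 10), muscle (3 of 7), glia and mesenchyme (3 of 8) and epithelium (2 of 7). The panel's names were matched to the RefSeq 5p or a-5p arm. The difference of lane slopes was added after the slopes were seen. Intervals and p-values cover the spread between these libraries.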

Additional observations from a re-analysis of the deposited data

Results flagged for a closer look

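The climb along the lanes at 4 h differed from the slope along the lanes at 24 h for miR-16 and for miR-322, by a test of the difference itself within 1 edgeR fit. For miR-16 the slope at 4 h minus that at 24 h was 0.36 log2 units per lane (SE 0.071, adjusted p = 0.00315 by edgeR), and for miR-322 it was 0.39 (SE 0.067, adjusted p = 0.00135 by edgeR), beside 21.5% of the tested miRNAs called in this comparison. Over the alternatives the adjusted p ranged between 4.58e-07 and 0.114 for miR-16 and between 8.25e-07 and 0.0843 for miR-322. Each lane held 1 library, and the times lay in separate lane blocks, so time and lane block cannot be told apart. Within each group lane order was also replicate order, so these cannot be told apart either.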

How the results depend on the processing

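The called results were the 4 h lane slopes of miR-16 and miR-322, which kept direction and call under each alternative run. Their slope difference and their time difference averaged over treatments were also called, and these kept direction but not call. For that time difference 0 members were called after positive control scaling, housekeeping scaling or without the filter, and 0 to 2 with 1 library left out. Time in vehicle cells gave 1 member by limma, 2 with the replicate block, and 0 to 2 with 1 library left out (2 without vehicle 4 h replicate 3, beside 12 of 195 tested miRNAs). Time in insulin cells gave 2 members with the replicate block and 0 to 1 with 1 library left out (1 without insulin 4 h replicate 3, beside 11 of 195). The 24 h slope gave 1 member after housekeeping scaling, beside 23 of 195 tested miRNAs. With 1 library left out it gave 0 to 1 (1 without vehicle 24 h replicate 3, beside 14 of 195). The slope difference gave 1 after positive control scaling, beside 8 of 195, and 0 relative to miR-15a, beside 19 of 195. The causes were not tested. Whether replicate numbers pair the samples is not settled: same-numbered deviations at the same time correlated between -0.30 and 0.74 (median 0.50, against -0.37 for different numbers), 1 of the 6 pairs was negative, and 9 of 12 libraries correlated best with their own number. Deviations were taken from each group's mean, so correlations of different numbers are pulled below 0 where those of same numbers lie above it. Same-numbered libraries of 1 time also lay in neighbouring lanes, so a shared culture and lane position cannot be told apart. The labels name no shared culture, so the block was kept as an alternative. With the replicate block both members were called in each treatment, miR-16 at 1.05 (adjusted p = 0.0383 by edgeR) and miR-322 at 1.03 (0.0309) in insulin cells, and miR-16 at 1.10 (0.0487) and miR-322 at 1.30 (0.0151) in vehicle cells. The replicate block called 10 in place of 0 of 195 miRNAs in vehicle cells, 18 in place of 7 in insulin cells and 35 in place of 30 averaged over treatments. DESeq2 called 15, 21 and 41. For the 4 h slopes over the panel, scaling to the 100 highest probes called 72 and limma 68 in place of 30.

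Signs turned for uncalled values, all on the log2 scale. For insulin at 4 h miR-15b was -0.049 background subtracted, -0.00783 under housekeeping scaling, -0.0795 with the lane slope, -0.0054 with library sizes over all mouse probes, -0.088 by limma, -0.017 at a mean count of at least 100, -0.083 under positive control and -0.088 under top 100 scaling. With the lane slope miR-16 was -0.059 and miR-322 -0.12. For insulin at 24 h miR-322 was -0.00238 by DESeq2, -0.00046 with RLE size factors, -0.00357 with library sizes over all mouse probes, -0.36 under housekeeping scaling, -0.030 by limma, -0.034 at a mean count of at least 100, -0.021 under positive control and -0.020 under top 100 scaling. miR-15a was -0.28 under housekeeping scaling, -0.026 by limma, -0.039 at a mean count of at least 100, -0.056 under positive control and -0.012 under top 100 scaling. Under housekeeping scaling miR-16 was -0.16 and miR-497 -0.33 (by limma -0.00084), with the median of all tested miRNAs at -0.33. For time, miR-15b was -0.35 in insulin cells and -0.11 averaged over treatments under housekeeping scaling. miR-497 in vehicle cells was 0.031 without the filter and 0.29 relative to miR-15a, and 0.15 averaged over treatments relative to miR-15a. The 4 h slope of miR-497 was 0.030 background subtracted, 0.0097 under housekeeping and 0.0013 under positive control scaling, and 0.039 without the filter. That of miR-15a was -0.0473 by limma, -0.016 at a mean count of at least 100 and -0.049 under top 100 scaling. The 24 h slopes under housekeeping scaling were -0.020 (miR-15b), -0.066 (miR-16), -0.034 (miR-322) and -0.064 (miR-497).

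With 1 library left out, insulin at 4 h ranged between -0.17 and 0.020 for miR-15a, -0.066 and 0.14 for miR-15b, -0.12 and 0.82 for miR-16, and -0.20 and 0.87 for miR-322. At 24 h it ranged between -0.14 and 0.26 for miR-15a, -0.32 and 0.19 for miR-15b, 0.066 and 0.33 for miR-16, -0.081 and 0.16 for miR-322, and -0.029 and 0.15 for miR-497. Time ranged between 0.62 and 1.49 for miR-16, 0.80 and 1.69 for miR-322 and -0.097 and 0.065 for miR-497 in vehicle cells, and in insulin cells between 0.62 and 1.33 for miR-16, 0.52 and 1.42 for miR-322, -0.34 and 0.072 for miR-15a and -0.036 and 0.47 for miR-15b. The 4 h slope ranged between -0.0066 and 0.088 for miR-15a and -0.085 and 0.014 for miR-497. The 24 h slope ranged between -0.026 and 0.13 for miR-15b, -0.017 and 0.11 for miR-16, and -0.011 and 0.065 for miR-497. Depth limits miR-497 and miR-195, whose counts lie near background.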
